A study of Homo sapiens with 6 samples.

Results

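Accessible chromatin of both PIK3CA knock-ins, E545K and H1047R, was set jointly against that of wild-type (WT) MCF-10A cells in the regions where all genotypes could be measured side by side. Peaks of the 3 deposited lists that touched or overlapped were merged into 120615 regions. Those with exactly 1 peak in each list, 69662 of the 120615, were compared. They held 70.4% of the WT peaks, 77.9% of the E545K peaks and 65.3% of the H1047R peaks. Of the other regions, 4170 had a peak in every list with more than 1 in some list, 19905 had a peak in 2 lists and 26878 in 1 list.

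MCF-10A is a non-tumorigenic human breast epithelial line, and ATAC-seq maps open chromatin through the cuts of the transposase Tn5. The groups were parental cells with WT PIK3CA, cells with PIK3CA E545K and cells with PIK3CA H1047R, with 2 samples each, and the knock-in lines came from earlier work. EGF was kept at 20 ng/ml in the maintenance medium of the parental cells and left out for each knock-in line. Before collection every group had 24 h in a common assay medium. Its supplements were stripped serum (1%), EGF (0.2 ng/ml), cholera toxin (100 ng/ml), insulin (10 µg/ml) and hydrocortisone (0.5 µg/ml). The allele and the maintenance medium therefore cannot be told apart. The labels used here do not say how many clones stand behind each line. Each genotype has 1 pooled peak list, so no value below has a replicate check, no test across samples was possible, and the depth is unknown.

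PIK3CA encodes p110α, the catalytic subunit of a class I PI3-kinase. E545K lies in its helical domain and H1047R in its kinase domain, and both are common activating changes in breast cancer. The enzyme makes PIP3 at the plasma membrane, which recruits AKT. AKT keeps FOXO factors out of the nucleus and feeds into mTORC1, and signalling through EGF receptors normally drives the pathway in breast epithelium, next to the MAP kinase cascade whose nuclear targets include the AP-1 factors FOS and JUN.

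The value of a region in a list is its deposited area, summed by the peak caller along the peak, which grows with both width and height. It is not a read count. The log2 area of each list was centred on that list's median over the 69662 regions. A shift is the centred log2 value of a knock-in minus that of WT, and the joint shift is the mean of both knock-in shifts, so that 1 is a 2-fold difference. A region was called when both knock-ins were at least 2-fold above WT, or both at least 2-fold below. The median area was 861 in WT, 725 in E545K and 921 in H1047R, and no list holds an area under 200.

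The sequences under the largest joint shifts show what kind of DNA carried them. For 3 of the highest joint shifts and 2 of the lowest, the bases are given around the summit of the strongest list, H1047R for the higher regions and WT for the lower. They were read from hg38, 5′ to 3′. Capitals mark TGANTCA, the motif of AP-1.
SLC5A9 region, chr1:48115056-48115256, plus strand: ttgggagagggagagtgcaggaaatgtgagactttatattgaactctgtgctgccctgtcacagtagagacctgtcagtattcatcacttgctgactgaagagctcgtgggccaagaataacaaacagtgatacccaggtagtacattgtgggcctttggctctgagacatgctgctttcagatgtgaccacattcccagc
TRAM1L1 region, chr4:117325085-117325285, plus strand: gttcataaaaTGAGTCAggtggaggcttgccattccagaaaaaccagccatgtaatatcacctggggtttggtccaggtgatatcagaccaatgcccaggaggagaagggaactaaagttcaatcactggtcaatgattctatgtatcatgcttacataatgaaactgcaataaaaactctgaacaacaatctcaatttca
L3MBTL1 region, chr20:43514184-43514384, plus strand: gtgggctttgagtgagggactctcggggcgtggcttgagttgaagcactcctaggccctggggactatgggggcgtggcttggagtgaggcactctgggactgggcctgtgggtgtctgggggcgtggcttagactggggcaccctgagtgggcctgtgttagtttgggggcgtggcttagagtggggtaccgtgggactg
ESR2 region, chr14:64234885-64235085, plus strand: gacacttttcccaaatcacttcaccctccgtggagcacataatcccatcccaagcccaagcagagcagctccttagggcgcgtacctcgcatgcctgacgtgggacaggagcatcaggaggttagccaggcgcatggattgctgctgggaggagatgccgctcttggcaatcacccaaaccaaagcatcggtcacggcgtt
SLCO4A1 region, chr20:62656188-62656388, plus strand: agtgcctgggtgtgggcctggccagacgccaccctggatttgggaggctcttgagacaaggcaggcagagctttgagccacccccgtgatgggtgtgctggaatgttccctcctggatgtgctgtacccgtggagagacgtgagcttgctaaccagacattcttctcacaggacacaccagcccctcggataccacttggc
Of these sequences only the one near TRAM1L1 holds an AP-1 match. The region near L3MBTL1 has a G and C content of 64.2% in this stretch, against 40.3% for the one near TRAM1L1. The lower sequences, near ESR2 and SLCO4A1, hold no AP-1 match.

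The share of regions with both knock-ins on 1 side of WT was no larger than the shared WT list brings by itself. Both knock-ins were above WT in 21638 regions and both below in 24388, together 66.1% of all, and they lay on opposite sides in 23636. Both shifts are taken against the same WT list, and 3 lists of equal and independent spread would give 66.7%, so this share shows no agreement beyond the design. The SD over regions was 0.56 for E545K minus WT, 0.57 for H1047R minus WT, 0.54 for E545K minus H1047R and 0.50 for the joint shift. The distance between the knock-ins was thus nearly as wide as the distance of either from WT.

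Past 2-fold, WT stood below both other lists in more regions than either knock-in did, and above both others in fewer. Both knock-ins were at least 2-fold above WT in 1293 regions, which is 1.86% of all, and at least 2-fold below in 634, which is 0.91%. In the same way E545K was at least 2-fold above both other lists in 734 regions and below in 783, and H1047R above in 765 and below in 893. Opposite calls were few, but they need the knock-ins far apart, and both share the WT list. Low counts thus come in part from the rule and show no agreement by themselves. E545K was 2-fold above and H1047R 2-fold below WT in 27 of the 69662 regions, and the reverse held in 15. On mean height alone (area divided by width) the counts were 350 higher and 112 lower, and with each peak covering at least 50% of its region 786 and 364.

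**Figure D1:**
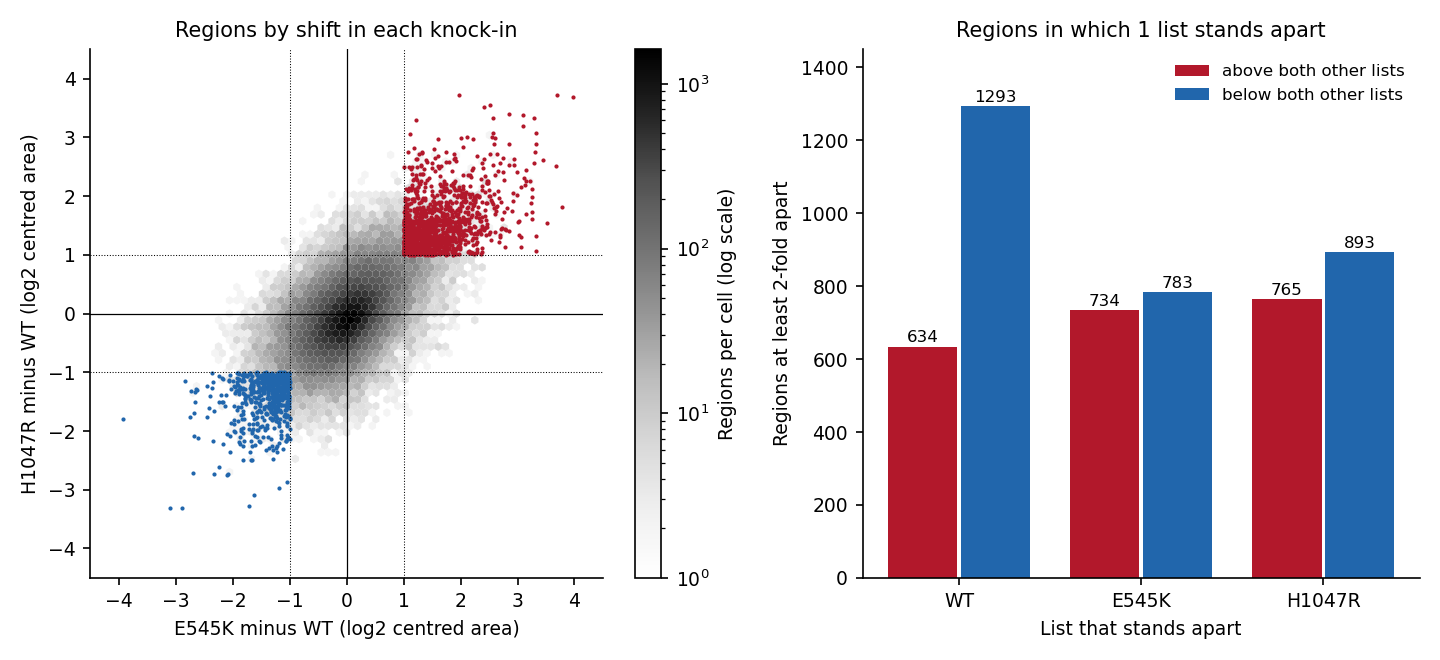
Left, the shift of each region in E545K (horizontal) and H1047R (vertical), log2 of centred area, with the number of regions per cell in grey on a log scale, the 1293 regions called higher in red, the 634 called lower in blue and dotted lines at 2-fold. Right, the number of regions in which 1 list lies at least 2-fold above (red) or below (blue) both others; the bar for WT below both others, at 1293, is the tallest.

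Regions called higher were weak and narrow in WT, and both wider and taller in the knock-ins. The call is made on area, which grows with width and height, so much of this is set by the call itself. Their median area was 324 in WT, 874 in E545K and 1052 in H1047R, and their median width was 378 bp, 689 bp and 691 bp. The median joint shift was 1.47, of which the part from width had a median of 0.70 and the part from mean height 0.83. Regions called lower were the mirror image, with median areas of 1036 (WT), 311 (E545K) and 423 (H1047R), a median joint shift of -1.35, a width part of -0.69 and a height part of -0.72. In the called regions the knock-ins were within 1.5-fold of each other in 77.5% of the higher and 81.4% of the lower, against 77.4% of all regions.

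How often a region was called depended on its level. From the weakest to the strongest quintile by mean level, the higher calls numbered 134, 463, 427, 224 and 45 and the lower calls 185, 244, 154, 47 and 4. The SD of the joint shift went from 0.60 in quintile 2 to 0.26 in the strongest. The minimum of 200 limits what can be called in each direction. WT was strong enough for both knock-ins to be listed 2-fold lower in 76.1% of regions, and both knock-ins were strong enough for WT to be listed 2-fold lower in 75.4%.

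The targeted gene itself differed little between the lists. The PIK3CA promoter (chromosome 3, gene at 179148114 to 179240093) had areas of 7476 (WT), 6633 (E545K) and 7244 (H1047R). It is not among the compared regions, and its areas do not check the alleles. The single measurable region near PIK3CA had a joint shift of -0.22. Marker promoters were those of a breast epithelial line: 9 of 10 basal and 7 of 8 luminal markers had a promoter peak in all lists, against 2 of 6 immune, 1 of 4 endothelial, 0 of 3 neural and 2 of 5 fibroblast markers. TP63 and PGR had none at the start of their canonical transcript.

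The highest joint shifts were outside promoters. Near SLC5A9, a sodium-coupled sugar transporter gene, the region at chromosome 1, 48114515 to 48115679 (intergenic, 107619 bp from its start) had areas of 220 (WT), 2902 (E545K) and 3016 (H1047R). Both knock-ins were far above WT and close to each other, at shifts of 3.97 and 3.68, which makes 14.2-fold jointly. The region 11280 bp from the start of AARD (chromosome 8, 116926406 to 116927447) had 236 in WT, 2564 in E545K and 3334 in H1047R. In the region nearest to TRAM1L1 (chromosome 4, 117324765 to 117325557, 239585 bp from its start) the areas were 217, 1777 and 2336 in the same order. An intronic region 6578 bp from the start of L3MBTL1, a chromatin reader that compacts nucleosomes, had 469, 3383 and 5212.

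Further down this order stood a region 49654 bp from the start of ZNF750, a transcription factor of epidermal differentiation (chromosome 17, 82888855 to 82890497, exonic). It had 291 in WT, 2451 in E545K and 2616 in H1047R. Exonic and intronic refer to any protein-coding gene, not only to the one named. The intronic regions nearest to FOXP1, a forkhead factor, and to CSF1, the growth factor of macrophages, had joint shifts of 3.14 and 3.13. They lay 143417 and 17932 bp from the starts. The region nearest to SLITRK1, a neuronal membrane protein gene, had a joint shift of 3.11, at 128198 bp from its start. Over these 8 regions the smallest shift of a single knock-in was 2.85, in E545K near CSF1.

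Among the lowest joint shifts was that of the region near ESR2, the gene of estrogen receptor beta (chromosome 14, 64234153 to 64236276, intronic), at -3.10. Its areas were 2473 in WT, 280 in E545K and 267 in H1047R, so that both knock-ins lay close to the smallest listed area. At SLCO4A1, an organic anion transporter gene, the lower values differed between the knock-ins, with 3640 in WT, 200 in E545K and 1116 in H1047R. The region 13836 bp from the start of FZD2, a WNT receptor gene, went the other way between them, with 2067 in WT, 530 in E545K and 229 in H1047R.

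Some lower regions lie in sequence that occurs many times in the genome. At the region nearest to RPIA, 2836617 bp away, the 31 bases at the WT summit occur 22 times in hg38. Over all regions 4.22% had a WT summit of more than 1 copy, against 4.02% of those called higher and 7.57% (95% Wilson interval 5.76 to 9.90, counting error only) of those called lower. Of the 66724 regions with a single copy, 0.878% were called lower, close to the share of all. How read placement in repeats bears on these regions was not tested.

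Promoters, here regions whose midpoint lies up to 1 kb from a canonical start of a protein-coding gene, were steadier than the rest. Of 9715 promoter regions, 50 were called higher (0.515%) and 9 lower (0.0926%), against 2.07% and 1.04% outside promoters. The SD of the joint shift was 0.28 in promoters, 0.53 in introns and 0.52 in intergenic regions. Classes were not matched for level. In the strongest quintile by mean level, over all classes, the SD was 0.26, with 0.323% called higher and 0.0287% lower. The knock-in medians of the promoters are given next. In promoters the knock-ins leaned slightly to different sides, with a median of 0.08 for E545K and -0.06 for H1047R, and the median joint shift was 0.00218. The strongest quintile over all classes leaned likewise, with 0.09 for E545K and -0.09 for H1047R, so this lean is not particular to promoters.

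The promoter of NEK10, a NIMA-related kinase gene, had areas of 252 (WT), 1631 (E545K) and 1678 (H1047R), a joint shift of 2.79. That of GCA, a calcium-binding protein gene, had 328, 3155 and 1028, with shifts of 3.51 in E545K and 1.55 in H1047R. KLK5, a serine protease of the epidermis, had 216 in WT, 1750 in E545K and 771 in H1047R at its promoter. The promoter of CLDN1, a tight junction claudin, had 587, 2699 and 1755. That of OCLN, the tight junction protein occludin, which was far lower in this order, had 2290, 5198 and 5128, with shifts of 1.43 in E545K and 1.06 in H1047R.

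TMCC3, PCLO, NKX1-2 and ENSG00000291239 made up the rest of the 8 highest promoters, with joint shifts from 1.79 to 2.22. The lower promoters were led by CAPNS2, a calpain small subunit gene, with 968 in WT, 331 in E545K and 208 in H1047R. Its joint shift of -1.81 had a width part of -1.85 and a part from mean height of 0.05. The summit −log10 p still fell, from 5.88 in WT to 3.64 in E545K and 2.96 in H1047R. ZNF879, a zinc-finger gene, had 1291, 317 and 502 (joint shift -1.62). NXPH3, CDH16, CNTNAP1, P3H3, ADD2 and SNX22 followed at -1.34 to -1.21, and the ninth was ALDH3A1 at -1.07.

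Along the genome, joint shifts were mostly even over long stretches, with 1 exception. In windows of 5 Mb with at least 20 regions, the window median had an SD of 0.09. Both knock-in medians were above 0 in 135 windows and below 0 in 187. The 5 lowest windows all lay in the first 45 Mb of chromosome 5. Its 9 windows had medians from -0.47 to -0.12, against a lowest value of -0.29 on all other chromosomes.

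In that stretch of chromosome 5, 818 regions had a median joint shift of -0.38, with -0.35 in E545K and -0.36 in H1047R, and 80.0% of them were below 0. Its areas were 0.77 times those of WT at the median. The 71 promoters there had a median of -0.24, against 0.06 for the 402 promoters on the rest of chromosome 5. Called lower were 27 of the 818 (3.30%, interval 2.28 to 4.76), and called higher were 9. The rest of chromosome 5 had a median of 0.04. DNA copy number was not measured, so copy number and accessibility cannot be told apart here. DAP, which lies in this stretch, is among the genes named below.

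At the other end, the highest window was chromosome 18, 65000001 to 70000000, at 0.30 over 37 regions with 0.19 in E545K and 0.25 in H1047R. It was followed by chromosome 4, 170000001 to 175000000, at 0.28 over 62 regions, and by the windows at 85000001 to 90000000 on chromosome 5 (0.27) and on chromosome 3 (0.24).

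**Figure D2:**
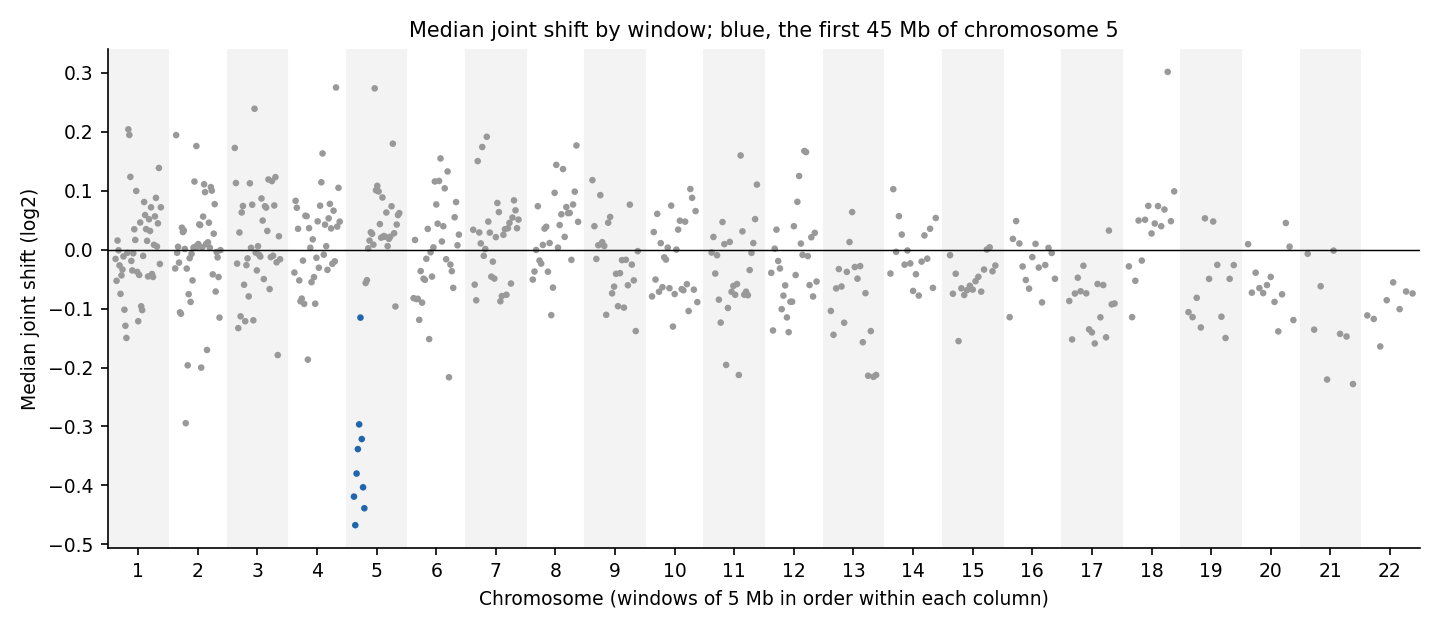
Each point is the median joint shift (log2) of 1 window of 5 Mb with at least 20 regions, in columns by chromosome. The blue points, the first 45 Mb of chromosome 5, lie between -0.47 and -0.12, and the other windows between -0.29 and 0.30.

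Calls also varied with base composition. In the quintile of regions with the lowest G and C content (up to 42.2%), 228 were called higher and 234 lower. In the quintile with the highest (from 57.4%), 197 were called higher and 43 lower. The middle quintile had 321 and 119.

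Gene by gene, each region was given to the closest start of a protein-coding gene, up to 100 kb away. Of 51804 regions so assigned, 1.75% were called higher and 0.778% lower. Of 3764 genes with at least 5 such regions, both knock-in medians lay on the same side in 2447 (65.0%), 1205 above and 1242 below, and on opposite sides in 1317. As for regions, this share is no more than the shared WT list brings. Only 4 genes had a median joint shift past 2-fold: STRA6, COBLL1 and ST14 above and CAPNS2 below.

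STRA6, the membrane receptor that takes up retinol, had the highest median joint shift, 1.17 over 6 regions, all of them above 0. An intronic region 6306 bp from its start (chromosome 15, 74195977 to 74196985) had areas of 469 (WT), 1442 (E545K) and 2259 (H1047R). Its promoter region had 1031, 2238 and 2114. Its smallest joint shift was 0.47, and each knock-in was above WT in all 6 regions, by 0.26 at the least in E545K.

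COBLL1 had 4 of 7 regions called higher and a median of 1.08, with medians of 1.04 in E545K and 1.07 in H1047R. Its strong promoter region had 7070 in WT, 8616 in E545K and 8516 in H1047R, the smallest of its 6 positive joint shifts. ST14, the gene of the membrane protease matriptase, had 3 of 8 regions called and a median of 1.04. A region 3043 bp from its start had 212 in WT, 1024 in E545K and 1493 in H1047R, a joint shift of 2.62. The region farthest downstream, 53394 bp from the start, had a joint shift of -0.61.

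The other genes with the highest medians had 5 to 7 regions each. ST6GAL1, a sialyltransferase gene, had all 7 regions above 0 with a median of 0.92 and none called. IL18, an inflammatory cytokine gene, had a median of 0.88 with close knock-in medians of 0.87 and 0.89, and 4 of 5 regions above 0. Its promoter region had opposite shifts, 0.42 in E545K and -0.61 in H1047R, and the median height part of the gene was 0.013. MYO1E, a class I myosin gene, had a median of 0.86, with a median height part of -0.0018. KCNF1, a potassium channel subunit gene, had 0.99, and TRIM67, GUCA2A (guanylin) and SYT12 (a synaptotagmin) had 0.91, 0.90 and 0.89. The knock-ins were unequal in 3 of these genes, with E545K at 0.46 and H1047R at 1.29 for KCNF1, 0.47 and 1.36 for TRIM67, and 0.56 and 1.46 for SYT12. TRIM67 and GUCA2A each had 2 of 5 regions below 0, and the median height part of TRIM67 was -0.0059. The GUCA2A regions above 0 lay 31289 to 45494 bp from its start, in introns of another gene. The region closest to GUCA2A, 1273 bp from its start, had a joint shift of -0.15.

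CAPNS2 stood lowest. All of its 6 regions were below 0, 3 were called, and the median was -1.30 with -1.34 in E545K and -1.21 in H1047R. The region 2121 bp from its start had areas of 2541 (WT), 828 (E545K) and 895 (H1047R). One 11055 bp away had 1010, 271 and 292. In every one of the 6 both knock-ins were below WT. Apart from the promoter region, those assigned to CAPNS2 lie outside the gene itself (chromosome 16, 55566684 to 55567687). They are intronic, so they lie in another gene.

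INHBA, which encodes the subunit of activin A, was lower mainly in H1047R. Its median was -0.26 in E545K and -1.11 in H1047R, and its promoter region had areas of 1227 (WT), 863 (E545K) and 420 (H1047R). PDPN, the mucin-like membrane protein podoplanin, had all 6 regions below 0 and a median of -0.90. An intronic region there had 1034, 222 and 471. CITED2, a transcriptional coregulator gene that is induced by many signals, had 6 of 7 regions below 0 and a median of -0.87. Its strong promoter region had 11845 in WT, 8663 in E545K and 7229 in H1047R, and a region 62162 bp away had 1532, 525 and 295.

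GJA1, the gap junction protein connexin 43, had a median of -0.82, with a median width part of -1.02 and a median height part of 0.12. The atypical cadherin gene FAT3 had -0.88, the organic anion transporter gene SLC22A11 -0.87 and the RNA-binding protein gene RBMS2 -0.84. The nuclear pore gene NUP58 had -0.82 and DAP -0.80. In SLC22A11, RBMS2, NUP58 and DAP every region was below 0.

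**Figure D3:**
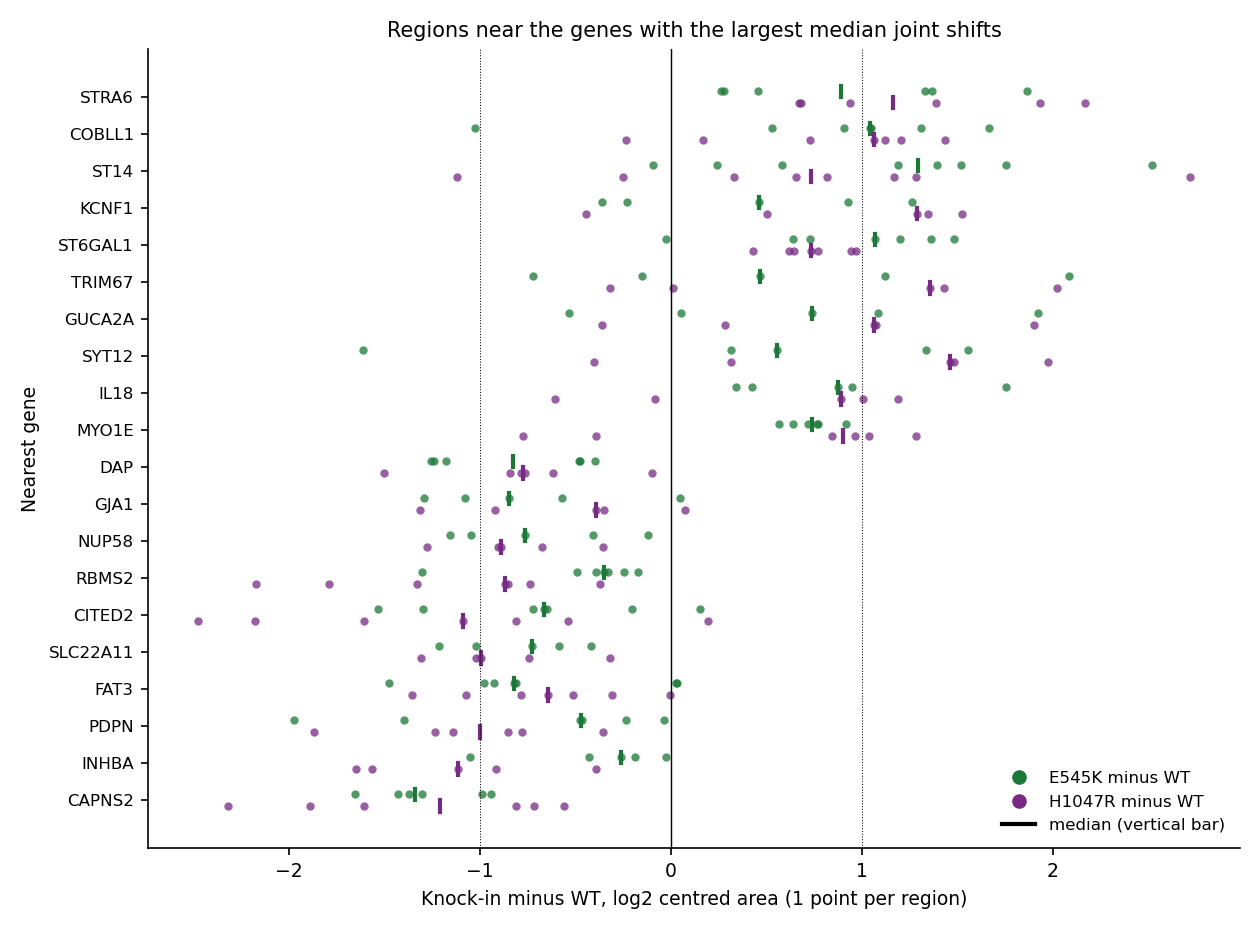
Shifts of each region assigned to the 10 genes with the highest and the 10 with the lowest median joint shift, as log2 of centred area minus WT, with E545K in green, H1047R in purple and medians as vertical bars. CAPNS2 regions lie below 0 in both knock-ins and STRA6 regions above 0, while the medians of INHBA lie apart, at -0.26 (E545K) and -1.11 (H1047R).

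Counting called regions in place of medians named further genes. CAST, the calpain inhibitor calpastatin, and COBLL1 had 4 each called higher, CAST of 17 regions. With 3 each came ADGRF1, ARHGAP10, ASAP2, CDC42EP4, MYO5B, NECTIN1, RARRES1 and ST14. NECTIN1, an adherens junction protein gene, had all 13 regions above 0, and MYO5B, a motor of apical membrane recycling, had 8 of 9. ADGRF1 also had 1 region called lower, and 6 of its 15 regions were below 0. CAPNS2 and ZNF281 had 3 each called lower. In all, 824 genes had a region called higher, 382 one called lower and 27 both.

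Gene lists drawn from pathways of this system were read against the shares for all assigned regions, 1.75% higher and 0.778% lower. Lists and members were chosen with earlier results of these data known, so a high share is no independent support. A list was described by its counts, with no test. Intervals are 95% Wilson intervals for counting error only, and regions of 1 gene are not independent. The lists share members.

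Keratinocyte differentiation genes had the highest share of regions called higher, 11 of 102 (10.8%, 6.13 to 18.3), in 10 genes, and none called lower. The median joint shift of their regions was 0.24, against -0.03 for all assigned regions. Much of the count came from the kallikrein proteases, which cut desmosomal proteins in the epidermis and lie side by side on chromosome 19. Besides the KLK5 promoter, a region 20645 bp away had areas of 1405 (WT), 4729 (E545K) and 3226 (H1047R). The region near KLK6 had 319, 2250 and 1527, and that near KLK7 had 647, 3628 and 2123. In all 4 regions E545K was above H1047R. Both were above WT, as the call requires.

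Outside that cluster, the desmocollin DSC1 had a region at 270 in WT, 1310 in E545K and 1106 in H1047R. The antimicrobial protein gene S100A7 had one at 306, 1043 and 1205, and the keratin KRT13 one at 343, 925 and 766. SPRR1A, a cornified envelope precursor, was called at its promoter with 262, 501 and 667. The regions of ZNF750 (above), TGM5, a transglutaminase, and PRDM1, a transcriptional repressor, complete the 11. By medians, KLK5 (1.55) and TGM5 (0.67) were highest, and SERPINB2 (-0.47), a serpin, and DSC1 (-0.11) lowest. DSC1 had 3 regions above and 5 below 0.

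Retinoid genes followed, with 7 of 99 regions called higher (7.07%, 3.47 to 13.9) and 1 lower. Besides STRA6 these were ALDH1A1 and ALDH1A3, which make retinoic acid, the nuclear receptor RXRA with 2 intronic regions, and CYP26A1, which degrades retinoic acid. The ALDH1A3 region 1833 bp from its start had 1313 in WT, 2883 in E545K and 3298 in H1047R. The one called lower was near CYP26B1, with 931, 207 and 496. Of 16 list genes with at least 3 regions, both knock-in medians were above 0 in 10 and below 0 in 2, where 29.5% and 35.4% of all 7510 such genes were. The lowest were TGM2 (-0.19) and RARG (-0.17), and ALDH1A1 had a median of 0.80.

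NF-kappaB and inflammatory genes had 9 of 176 regions called higher (5.11%, 2.71 to 9.43) and 1 lower. TNFAIP3, a feedback inhibitor of the pathway, had 2 regions called, one with 575 in WT, 1837 in E545K and 1959 in H1047R. NFKBIZ had one with 502, 1493 and 1563. The chemokine gene CCL20 had one with 320, 1498 and 1591, a joint shift of 2.34. The cytokine genes LIF, CSF2 and IL18, the subunit gene REL and TNFAIP2 had 1 each. CSF3, a granulocyte growth factor, had the region called lower, with 2260, 889 and 1000.3. SOD2 (0.81) and IL18 had the highest medians, and CSF3 (-0.30) and BIRC3 (-0.25) the lowest. The SOD2 value mixes unequal shifts, 0.39 in E545K and 1.23 in H1047R, and none of its regions was called.

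The PI3K, AKT and mTOR pathway itself gave counts near the background, 3 of 168 regions called higher and 1 lower. The higher ones lay near PIK3CB, another catalytic subunit (2239 in WT, 4340 in E545K and 4869 in H1047R), PIK3CG and RHEB, an activator of mTORC1. The lower one lay in IRS2, an adaptor of the insulin receptor, with 622, 239 and 266. The adaptor genes IRS1 (0.53) and GRB10 (0.48) had the highest medians, and PIK3IP1 (-0.53), an inhibitor of PI3-kinase, the lowest. Of 21 genes with at least 3 regions, 5 had both medians above 0 and 11 below.

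FOXO factors and targets were called in both directions, 8 of 197 regions higher (4.06%, 2.07 to 7.81) and 7 lower (3.55%, 1.73 to 7.15). Higher were regions of GADD45A (2), of the death gene BCL2L11, of the metabolic kinase PDK4 and of FOXO6, TRIB1 and FBXO32 (2). The PDK4 region 2854 bp from its start had 374 in WT, 974 in E545K and 989 in H1047R. Lower were CITED2 (2), the cyclin gene CCNG2, KLF6, the receptor ERBB3, IRS2 and a further region of FBXO32. The CCNG2 region had 1133, 306 and 481. FBXO32, a ubiquitin ligase subunit of muscle atrophy, thus held called regions of both kinds. The medians of SOD2 (unequal between the knock-ins, as given above) and GADD45A (0.49) stood highest, and those of CITED2 and GADD45B (-0.43) lowest.

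Genes of the early response to EGF and MAP kinase had 9 of 266 regions called higher (3.38%, 1.79 to 6.30) and 3 lower. Higher were distal regions of the AP-1 subunit genes JUN and FOS and of the MAP kinase phosphatases DUSP1, DUSP5 and DUSP10. The JUN region had 223 in WT, 846 in E545K and 1228 in H1047R, and the FOS region 566, 1841 and 1321. The DUSP1 region had 275, 1276 and 1373, and the DUSP5 region 226, 840 and 992. DUSP4, of the same family, had a region called lower, with 991, 200 and 485. KLF10 and PHLDA2 had the highest medians (0.66 and 0.54), and NR4A3 (-0.65) and KLF6 (-0.39) the lowest.

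ERBB receptors, ligands and feedback inhibitors leaned lower, with a median joint shift of -0.13 and 2 of 155 regions called higher against 3 lower. The lower ones lay near the ligand gene AREG (861 in WT, 329 in E545K and 417 in H1047R), the inhibitor SPRY4 (1061, 364 and 508) and ERBB3 (1058, 386 and 469). SPRY4 had another region called higher, with 317, 792 and 1159, and SPRY1 one with 277, 1062 and 602. The medians of the ligands BTC (0.36) and HBEGF (0.19) were highest, and those of the inhibitors LRIG3 (-0.44) and ERRFI1 (-0.40) lowest. Of 21 genes, 5 had both medians above 0 and 10 below.

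Cell junction and hemidesmosome genes had few calls but leaned higher. Of 223 regions 5 were called higher and none lower, the median joint shift was 0.15, and of 26 genes with at least 3 regions 17 had both medians above 0 and 4 below. Their 19 promoters had a median of 0.22. Besides the CLDN1 and OCLN promoters, the desmosomal plaque genes DSP (2 regions) and JUP were called. The DSP region 12726 bp from its start had 577 in WT, 1108 in E545K and 2392 in H1047R. At CLDN1 the promoter stood apart, since 13 of its 15 regions were below 0. OCLN (0.76) and CLDN4 (0.62) had the highest medians. CTNNA1 (-0.32) and the hemidesmosome integrin ITGB4 (-0.21, but 0.03 on mean height) had the lowest.

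Luminal markers had 4 of 101 regions called higher (3.96%, 1.55 to 9.74) and 1 lower, and basal markers 2 of 149 and none. The higher luminal regions lay near CD24, ELF5, FOXA1 and ALDH1A3. The FOXA1 promoter, of a pioneer factor of luminal cells, had 4954 in WT, 8069 in E545K and 7516 in H1047R, short of 2-fold. CLDN4 and ELF3 (0.51) had the highest luminal medians. The keratins KRT18 (-0.60) and KRT8 (-0.42) had the lowest, with every region below 0. KRT19, another luminal keratin, went the other way, with a median of 0.49 and all 5 regions above 0. Among basal genes COL17A1 (0.31) and SFN (0.28) stood highest and TP63 (-0.43, but 0.03 on mean height) and ITGB4 lowest. The markers of each lineage thus lay on both sides of WT.

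Epithelial transcription factors had none of 238 regions called higher, which allows up to 1.59% by the interval, and 3 lower, near SOX2, CEBPD and ETS2. The ETS2 region had 1471 in WT, 244 in E545K and 352 in H1047R. ELF3 and MSX1 (0.49) had the highest medians, and SOX2 (-0.65) and BACH1 (-0.50) the lowest.

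p53 targets had 5 of 116 regions called higher (4.31%, 1.85 to 9.69) and none lower, with 9 of 17 genes above 0 in both medians and 1 below. PLK2, a stress-induced kinase gene, had a median of 0.61 and PHLDA3 one of 0.56, and SESN1 was lowest at -0.15. Focal adhesion and integrin genes had 4 of 248 called higher and 2 lower. There the integrin subunits ITGB8 (0.53) and ITGAV (0.25) stood against CAV1 (-0.78) and PXN (-0.61), the caveolar coat protein and the adhesion adaptor paxillin, which were below 0 in every region. CAV1 had medians of -0.08 in E545K and -1.51 in H1047R, so its joint value mixes unequal shifts.

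Of YAP and TEAD genes 4 of 223 regions were called higher and 2 lower, with WWTR1 (0.44) and TGFB2 (0.40) highest and GADD45B and YAP1 (-0.36) lowest. Of TGF-beta and WNT genes 3 of 263 were called higher and 4 lower, with SMAD3 (0.47) and TGFB2 highest and FZD2 (-1.39) and INHBA lowest. Of epithelial-mesenchymal transition genes 3 of 191 were higher and 2 lower, with the metalloprotease MMP2 (0.55) and the cadherin CDH1 (0.49, but -0.20 on mean height) highest and TGFBI (-0.51) and AXL (-0.35) lowest. Amino acid response and NRF2 genes had 3 of 131 higher and 2 lower. The cystine transporter SLC7A11 (-0.69) and the amino acid transporter SLC38A2 (-0.54) had all regions below 0, and TXNRD1 (0.27) and GCLC (0.25) were highest.

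The remaining lists were close to the background or rested on few regions. Interferon response genes had none of 87 regions called, although their median was 0.15 and 6 of 10 genes were above 0 in both medians and none below. G1 cyclins, kinases and inhibitors had none of 108 called. HOX genes had a median of -0.21 over 41 regions and 1 call, which was lower. Glycolysis and hypoxia genes had 3 called higher and 1 lower of 187, sterol and fatty acid synthesis genes 3 and 1 of 148, and glucocorticoid and cAMP response genes 3 and 2 of 158. Immune markers had 0 called of 56, neural and endothelial markers 1 higher of 97, and housekeeping genes 2 higher of 82.

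**Figure D4:**
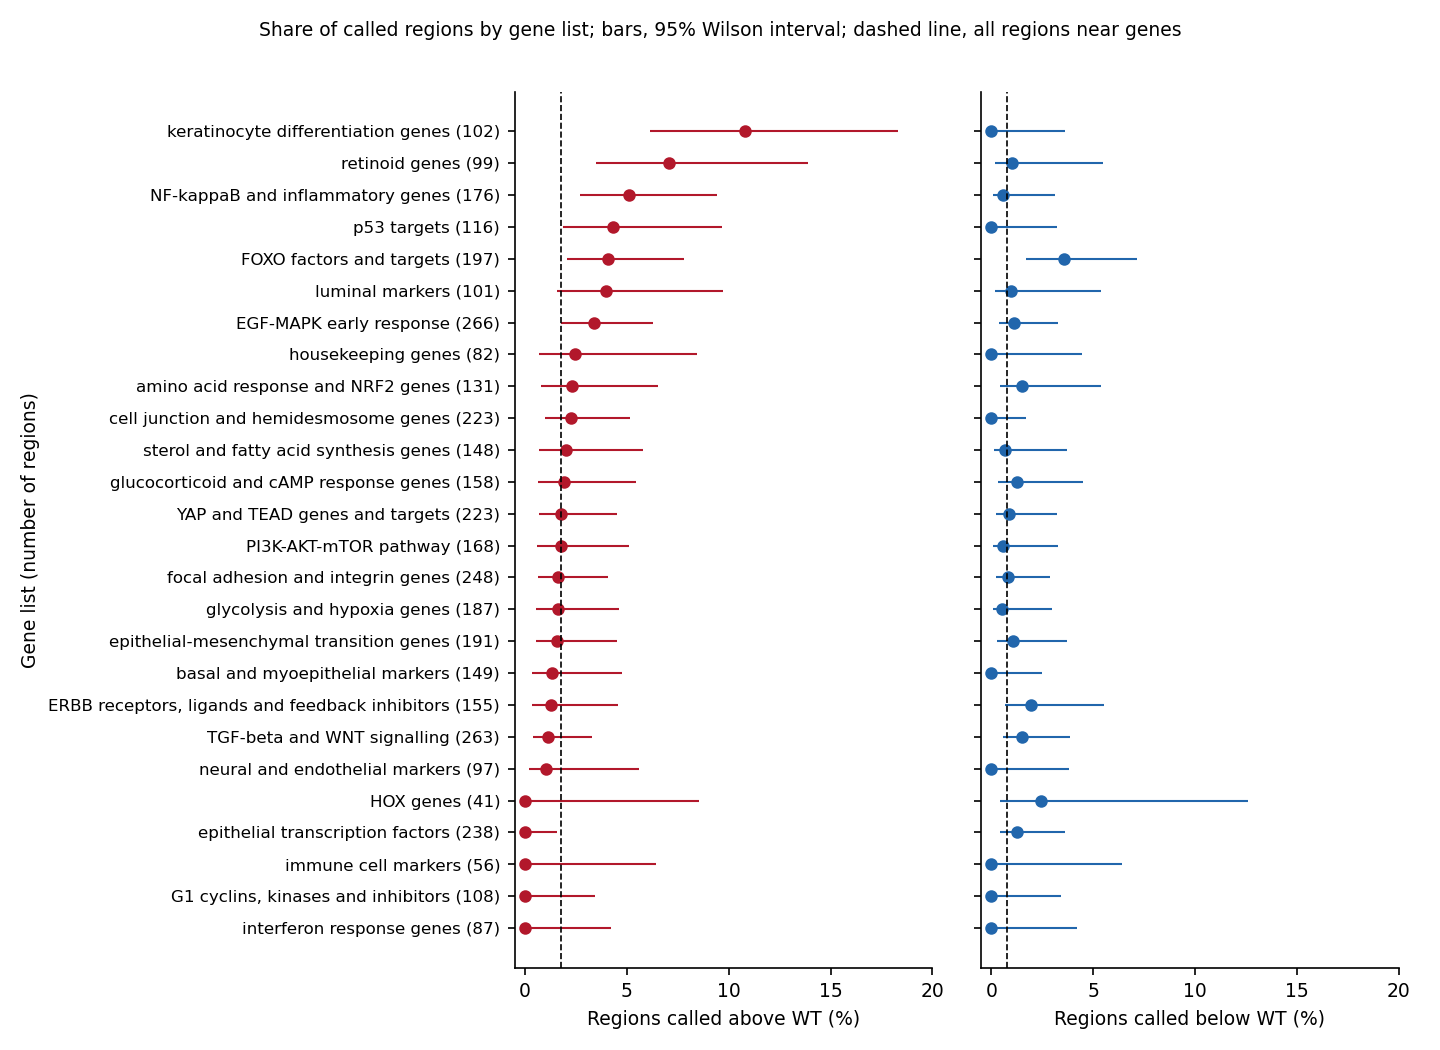
Share of the regions of each gene list called higher (left, red) and lower (right, blue) in both knock-ins, in percent with 95% Wilson intervals for counting error, and the number of regions in brackets. Dashed lines mark all assigned regions, 1.75% and 0.778%. Keratinocyte differentiation genes reach 10.8% on the left, and FOXO factors and targets 3.55% on the right.

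Short sequence motifs were counted within 100 bases of the WT summit on both strands, outside promoters. Shares are given for all 59947 such regions, for the 1243 called higher and for the 625 called lower. They describe letters and not bound factors. AP-1, written TGANTCA, was in 40.3% of all regions, 38.4% of the higher and 29.8% of the lower. Regions with it had a median joint shift 0.11 above those without, with 0.02 in E545K and 0.20 in H1047R. TEAD (GGAATG) ran the other way, with 19.5% of all, 15.0% of the higher and 28.3% of the lower.

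Several motifs had a larger share in the lower than in the higher regions. The forkhead motif TGTTTAC was in 4.01% of all, 2.98% of the higher and 7.36% of the lower. Its longer form for FOXO, TTGTTTAC, which overlaps it, was in 1.34%, 1.21% and 3.36%, that is in few regions. C/EBP (TTGCNNAA) was in 14.7%, 12.4% and 20.6%. The p53 and p63 pattern was in 1.61%, 0.724% and 3.52%, and the glucocorticoid receptor pattern in 0.902%, 1.21% and 2.88%. The last rests on 15 higher and 18 lower regions, whose intervals overlap (0.733 to 1.98 and 1.83 to 4.51).

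Others had a larger share in the higher than in the lower regions. EGR (GCGTGGG) was in 1.67% of all, 2.82% of the higher and 0.32% of the lower, the last being 2 regions. NR4A (AAAGGTCA) was in 0.682%, 1.45% and 0.48%, that is in 18 higher and 3 lower regions with overlapping intervals (0.918 to 2.28 and 0.163 to 1.40). The shares were 10.5%, 12.8% and 7.04% for TFAP2 (GCCNNNGGC) and 18.2%, 21.6% and 16.3% for RUNX (TGTGGT). KLF and SP factors (GGGCGG) had 9.39%, 8.53% and 4.48%, and ZEB and SNAI factors (CACCTG) 20.2%, 22.8% and 14.7%. CTCF, the insulator protein, had 9.22% of all, 3.86% of the higher and 4.48% of the lower. Calls also varied with G and C content and with level, as given above. The part of either in these shares, including those of CTCF, was not tested.

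**Figure D5:**
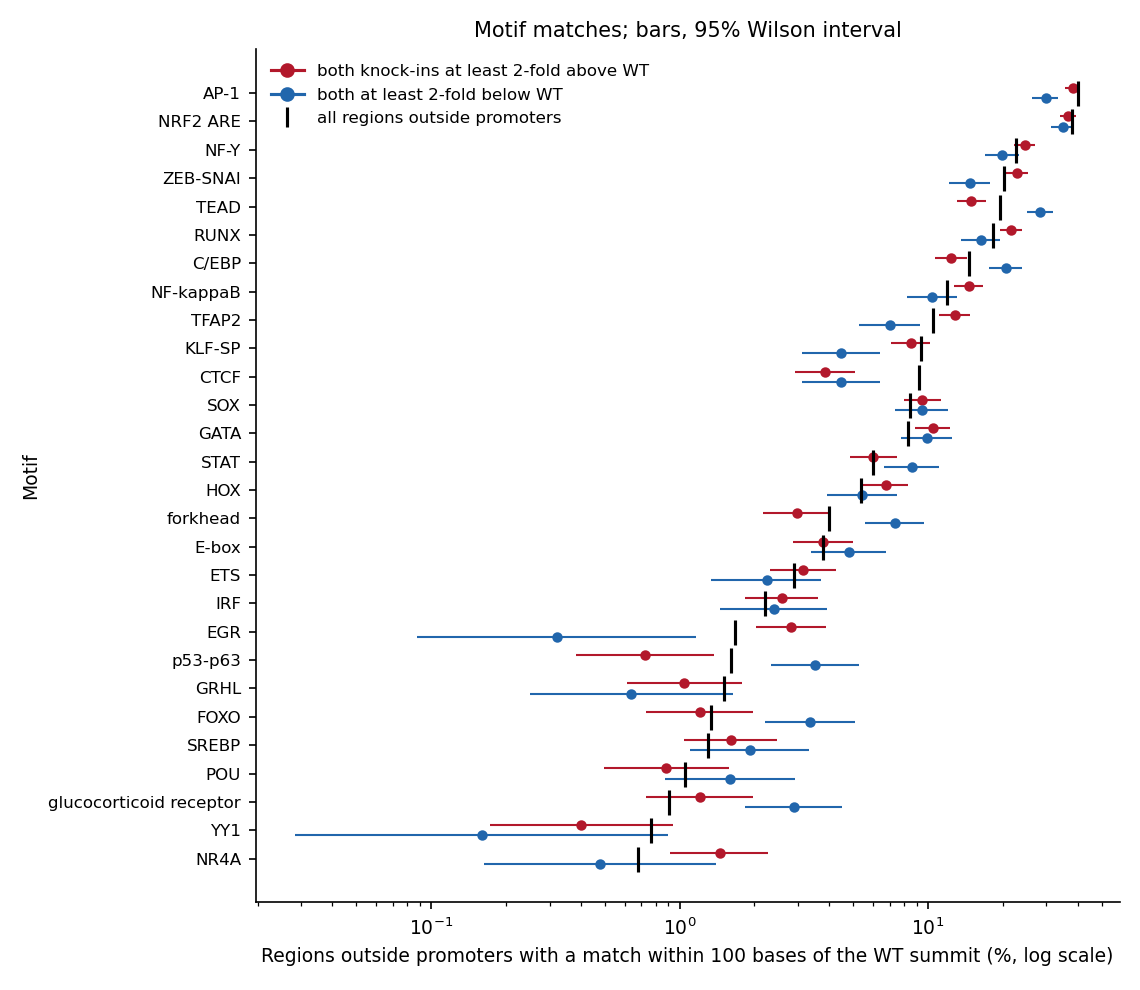
Percent of regions outside promoters with a motif match within 100 bases of the WT summit, on a log axis, for regions called higher (red) and lower (blue) with 95% Wilson intervals for counting error, and for all regions (black). Among frequent motifs the coloured intervals lie apart for AP-1, TEAD, ZEB-SNAI, RUNX (narrowly), C/EBP, TFAP2 and KLF-SP. CTCF lies below the black mark in both.

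Where the knock-ins parted, the joint shift hid opposite shifts. Of the genes with medians on opposite sides, TXNIP, an inhibitor of thioredoxin and of glucose uptake, had the widest gap, 0.52 in E545K and -1.0 in H1047R. Its region 6383 bp from the start (chromosome 1, 145987149 to 145993243) had areas of 5091 (WT), 12556 (E545K) and 1142 (H1047R). Of its 5 regions 4 had a positive shift in E545K, and all 5 a negative one in H1047R. MMEL1, LYVE1, SLC22A5 and PTP4A3 followed with gaps of 1.12 to 1.00.

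In the other direction GREM1, a BMP antagonist gene, had -0.58 in E545K and 0.74 in H1047R. Its region at chromosome 15, 32684028 to 32684773, had 253 in WT, 231 in E545K and 1503 in H1047R. PLA2R1, PRLR, RAB42 and PGBD5 followed, with E545K minus H1047R from -0.98 to -0.86. None of these genes had a region called lower, and RAB42 and PGBD5 had 1 each called higher.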

How the data were processed

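ATAC-seq was done on 6 MCF-10A samples, 2 for each of 3 genotypes, and 1 pooled peak list per genotype was used. Per the submitters' processing notes, Trim Galore 0.4.0, cutadapt, FastQC, SAMtools and Genrich 0.6.1 were used with hg38; which aligner was run is not stated there. The deposited signal is the authors' area under each peak, with a summit −log10 p and a peak score that was not used. Scaling between the authors' lists is not stated, so each was centred on its own median. Depth per sample is unknown.

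Touching peaks were merged, which was checked with bedtools 2.31.1. Gene models came from GENCODE release 44. Calculations used Python 3.11.15, numpy 2.4.6, pandas 2.3.3, scipy 1.17.1 and pysam 0.24.0 and were tested on simulated data.

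Named were the 10 genes per direction with the largest median joint shift among those with at least 5 regions and both knock-in medians on 1 side, the 8 largest called regions and promoters per direction, 5 discordant genes per direction, and members of 26 gene lists with at least 3 regions; some of the items so chosen are not reported here. Called regions of list genes, genes with at least 3 called regions, and the FOXA1, OCLN and ALDH3A1 promoters were chosen after their values were seen. Members and lists were chosen with earlier results of these data known. Alternatives changed the measure, centring, peak coverage, level and threshold.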

Additional observations from a re-analysis of the deposited data

Results flagged for a closer look

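At 2 genes the knock-in medians lay far apart and on opposite sides of WT. Near TXNIP the median shift of E545K minus that of H1047R was 1.53 over 5 regions. Near GREM1 the same difference was -1.33 over 5 regions. With 1 list per genotype, neither difference was tested.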

How the results depend on the processing

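No paired analysis was possible because each genotype is represented by 1 pooled list, and for the same reason no replicate could be left out. The number of regions with both knock-ins at least 2-fold above WT was 1293, and of regions with both knock-ins at least 2-fold below WT 634. These became 22 and 4 on the summit −log10 p, 350 and 112 on mean height, 786 and 364 with each peak covering at least 50% of the region, 467 and 132 in the upper 50% of regions by level, 4037 and 3021 at 1.5-fold, and 2418 and 1505 where the mean of both knock-ins passed 2-fold. Quantile scaling gave 1316 and 632, of which 1240 and 602 were regions of the original calls, and centring on all peaks 1189 and 664, of which 1022 and 497 were. Chosen after seeing the data, regions with single-copy summits gave 1234 and 589, regions outside the first 45 Mb of chromosome 5 gave 1268 and 614, and the summit measure at a threshold of as many SDs gave 1298 and 611, with 952 and 415 shared.

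An alternative value of a shift was counted as close when it had the same sign and lay less than 1.5-fold from the original. Shifts that are themselves small meet this easily. Of 1114 alternative values of 118 named shifts, 1004 were close to the original, 92 had moved and 18 had the opposite sign. On mean height these were TRIM67 (-0.0059), MYO1E (-0.0018), GJA1 (0.12), TP63 (0.026), ITGB4 (0.035), CDH1 (-0.20) and the CAPNS2 promoter (0.053). In the upper 50% by level they were TRIM67 (-0.071), GUCA2A (-0.15), ALDH1A1 (-0.59) and DSC1 (0.16), and on the summit −log10 p DSC1 (0.023). With each peak covering at least 50% they were CTNNA1 (0.026) and TXNRD1 (-0.45). In gene bodies and 5 kb upstream they were TRIM67 (-0.070), GUCA2A (-0.15), TXNRD1 (-0.43) and SOX2 (1.03). The cause was not tested. Of 796 alternative values of 124 shares by list, location class and motif, 648 lay within the original 95% interval and 148 had moved out of it. These totals pool settings that change little with those that change the measure. For shifts and shares together, quantile scaling left 178 values close or within the interval and moved none. On mean height 94 stayed so, 77 had moved and 7 had the opposite sign. With the summit −log10 p these counts were 89, 88 and 1.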
